A study of Mus musculus with 8 samples.

Results

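The genes described here are the transcription factors Foxo1 and Foxo3 and 8 genes linked to them or to cell quiescence, namely Depp1, Trp53inp1, Btg1, Btg2, Txnip, Sesn1, Sesn3 and Cited2. They were measured in lymphatic endothelial cells, which line the vessels that carry fluid and leukocytes out of tissue. The 10 genes were taken from 10843 genes tested, and 26 probe sets of the array name one of them and no other gene. They were chosen because Depp1, Trp53inp1 and Btg2 were lower in inflamed skin. Differences of these 10 genes between inflamed and untreated samples are therefore given as a description, without p-values. Where a call past a threshold is named for them, it is not read as support.

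The cells came from the ear skin of female FVB mice and were sorted as CD45-, CD31+ and podoplanin+ cells. Inflamed samples came from mice with contact hypersensitivity, an allergic skin reaction: 2% oxazolone was put on abdomen and paws to sensitise the animals, and 1% oxazolone followed after 5 days, 10 µl to either face of each ear. Ears were taken 24 hours later. Control mice are labelled healthy and untreated, and the labels name no group given the solvent alone. Each group held 4 samples, each pooled from 3 mice. Sorting and RNA extraction ran in pairs of 1 untreated and 1 inflamed sample per day, and the 4 pairs were picked by the submitters for the quality of their material. The mice of pairs 1 to 4 were 9, 8, 8 and 10 weeks old. The arrays gave 1 signal per probe set, with a mean signal per array between 126.2 and 160.4. The comparison asks which transcripts change in lymphatic endothelium when the skin is inflamed.

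FoxO proteins are forkhead transcription factors that act downstream of growth factor signalling. When PI3K activates the kinase AKT, AKT phosphorylates them and they are carried out of the nucleus. When that signal is weak, they enter the nucleus and switch on genes that slow growth, limit protein synthesis, promote autophagy or protect against oxidative stress. In endothelium, Foxo1 is known for keeping vessel cells out of the cell cycle. Several of the genes described here, such as Btg2, Sesn1 and Trp53inp1, are known targets of p53 as well. The abundance of a FoxO transcript does not report where the protein is or whether it is phosphorylated.

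In inflamed samples, Depp1, Sesn1, Trp53inp1, Btg2, Foxo3, Foxo1 and Txnip were lower in all 4 pairs, while Btg1 was close to its untreated level. For these 7 genes the inflamed values did not overlap the untreated ones, and their mean log2 signals lay between 1.03 (Txnip) and 5.63 (Depp1) below those of untreated samples. The median difference of the 10 genes was -1.62 on the log2 scale, against -0.09 for all genes tested. All 7 were past an adjusted p of 0.05 in limma, and 0 of the 10 were past it in the higher direction. Of all genes tested, 3.02% were past that threshold in the lower direction and 3.91% in the higher, 6.84% had inflamed values entirely below the untreated ones, 6.3% entirely above, and 15.5% were lower in all 4 pairs. At an unadjusted p under 0.05 in the same limma fit, 1247 of all 10843 genes were lower and 1139 higher. The counts of related lists given below are to be set beside these shares. Because the 10 genes were chosen on this contrast, nothing is read from their share. In pooled, sorted cells, fewer cells that carry a transcript and less transcript per cell cannot be told apart.

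**Figure D1:**
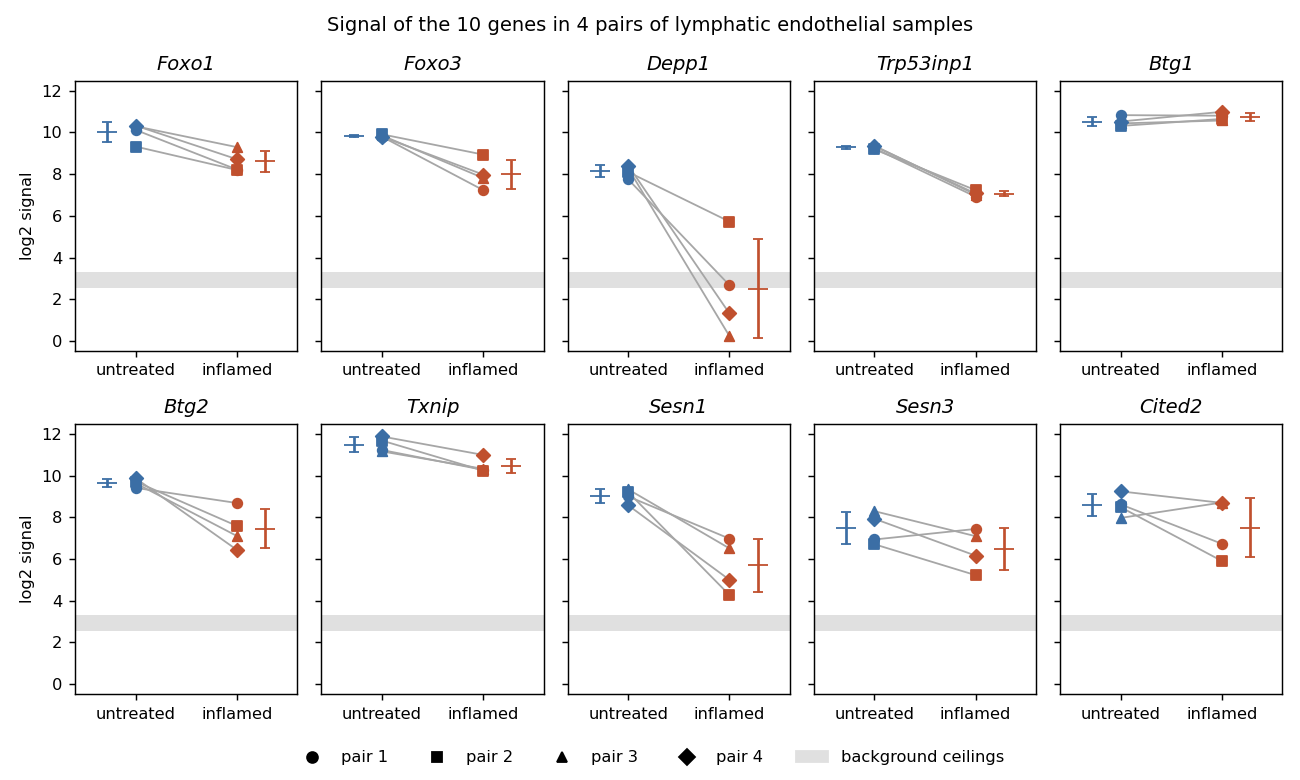
Log2 signal of the probe set that represents each of the 10 genes in untreated (blue) and inflamed (orange) samples. Points of a pair share a shape and are joined by a line, bars beside them are the mean and SD of 4 samples, and the grey band spans the background ceilings of the 8 arrays. Depp1 lay in or under the grey band in 3 of 4 inflamed samples, while Btg1 stayed near its untreated level.

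Markers of the sorted cells and of other cells moved along with these differences. Summed signals of 7 lymphatic endothelial markers were 21820 to 28303 in untreated and 12068 to 20811 in inflamed samples, and those of 8 pan-endothelial markers 8811 to 14498 and 5420 to 10186, lower in all 4 pairs for both lists, with median changes of -0.91 and -0.70. Prox1, the lymphatic master regulator, had log2 signals of 11.17 ± 0.18 and 9.73 ± 1.38, and Pecam1, the gene of CD31, of 10.50 ± 0.10 and 9.78 ± 0.85 (SD, n = 4), above background in every sample. Neither passed (limma adjusted p = 0.0618 and 0.188). Prox1 was lower in all 4 pairs, while Pecam1 was higher in pair 3. Prox1 passed as lower in 4 of 10 alternatives that kept all samples, and Pecam1 in 0. With a pair left out, neither passed. The markers past the threshold as lower were Mmrn1, Nrp2 and Reln of the first list and Kdr, Tie1 and Tek of the second. Other markers of these lists did not go down with them: Pdpn, the gene of podoplanin, differed by 0.56 and was higher in all 4 pairs, Cdh5 by 0.50 and Emcn by 0.23, each higher in 3 of 4, and Lyve1 by -0.18, none of which passed. Sums of 8 neutrophil markers were 25.6 to 67.9 and 698 to 1653. Only 2 of them, S100a8 and S100a9, were tested, and both passed. The others, under the filter on dim probe sets, differed by 2.74 (Cxcr2), 1.97 (Csf3r), 0.84 (Mpo), 0.76 (Camp), 0.02 (Ngp) and -0.68 (Elane). Of these, only Cxcr2 was higher in all 4 pairs. Ptprc, the gene of CD45, was above background in 0 of 4 untreated and 3 of 4 inflamed samples. Sums of 8 fibroblast markers were 4391 to 19570 and 10243 to 24350, and those of 10 monocyte and macrophage markers 488 to 1051 and 638 to 1776, higher in 4 and 3 of 4 pairs. Of these, only the fibroblast marker Lum passed, higher by 1.49 (limma adjusted p = 0.0167). Sums of 8 keratinocyte markers were 998 to 4724 and 176 to 1371, lower in 3 of 4 pairs, with a median change of -3.08. Of 6 tested, Krt5, Krt10 and Krt2 passed as lower, at -3.53, -5.99 and -5.66 (limma adjusted p = 0.0354, 0.0299 and 0.00618). Sums of 8 blood endothelial markers were 1791 to 2620 and 1272 to 2263, higher in 0 of 4 pairs, although their median change was 0.37. Past the threshold were Car4, which differed by 5.69, and Aqp1 and Gpihbp1, at -1.63 and -2.76. Sums of 6 T cell markers were 43.4 to 108 and 22.2 to 89.5. For 8 pericyte and smooth muscle markers, with Cnn1 under background on every array, they were 207 to 1956 and 440 to 628. The log2 ratio of the 3' to the 5' probe set of Gapdh was 3.40 to 4.16 in untreated and 2.58 to 3.30 in inflamed samples. That of Actb was -0.15 to -0.00081 in untreated and -0.12 to -0.013 in inflamed samples, so its ranges overlapped. The part of these shifts in the differences of the 10 genes was not tested.

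The promoter sequences of 4 of the genes are shown because they hold forkhead-type or cyclic AMP response elements and include both members of a gene pair, Btg1 and Btg2, that differed in inflamed skin. Each run gives the 250 bases before the annotated start in RefSeq, build GRCm38.p6, in the direction of the gene. Capitals mark the matches. The windows are chr6:116650434-116650683 (plus strand) for Depp1, chr3:96557707-96557956 (plus strand) for Txnip, chr10:96616751-96617000 (plus strand) for Btg1 and chr1:134079156-134079405 (minus strand) for Btg2.
Depp1: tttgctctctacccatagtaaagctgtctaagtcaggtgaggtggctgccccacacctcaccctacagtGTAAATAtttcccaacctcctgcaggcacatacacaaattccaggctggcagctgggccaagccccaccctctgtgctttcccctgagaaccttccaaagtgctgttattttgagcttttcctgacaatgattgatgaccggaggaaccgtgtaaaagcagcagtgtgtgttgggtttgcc
Txnip: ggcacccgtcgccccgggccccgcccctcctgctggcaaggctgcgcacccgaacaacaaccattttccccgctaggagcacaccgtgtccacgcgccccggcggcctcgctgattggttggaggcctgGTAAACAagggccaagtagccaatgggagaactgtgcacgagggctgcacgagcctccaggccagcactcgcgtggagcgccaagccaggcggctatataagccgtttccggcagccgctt
Btg1: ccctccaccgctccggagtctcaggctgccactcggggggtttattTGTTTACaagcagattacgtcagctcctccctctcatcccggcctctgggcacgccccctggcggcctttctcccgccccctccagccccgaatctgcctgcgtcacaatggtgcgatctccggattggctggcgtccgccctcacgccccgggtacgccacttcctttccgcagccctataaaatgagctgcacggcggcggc
Btg2: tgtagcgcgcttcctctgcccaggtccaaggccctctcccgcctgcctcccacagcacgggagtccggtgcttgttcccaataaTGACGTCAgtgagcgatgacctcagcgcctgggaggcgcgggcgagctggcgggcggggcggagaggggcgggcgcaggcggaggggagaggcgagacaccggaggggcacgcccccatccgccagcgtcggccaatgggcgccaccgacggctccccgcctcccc
In both strands, 3 motifs were searched: a forkhead core (the letters GTAAACA, the form GTAAATA, the form ATAAACA or the form ATAAATA), the cyclic AMP response element TGACGTCA and the E-box CACGTG. The forkhead core lay 181 bases before the start of Depp1 (GTAAATA), 121 before that of Txnip (GTAAACA) and 204 before that of Btg1 (TGTTTAC, the core on the other strand). It was thus found upstream of 3 of the 9 genes with an entry, all but Trp53inp1 having one, and in 13.6% of all 32851 promoter windows. The first is a share of genes, with 10 windows for the 9 genes, and the second a share of windows. Because the motifs were chosen with promoter sequences in view, nothing is read from the difference. The response element lay 166 bases before the start of Btg2 (1.55% of all windows), and the E-box 153 bases before that of Cited2 (6.02%). No matches overlapped. The other 4 genes with an entry held none of these letters in the window. One gene with a match, Btg1, was not lower, and these matches are a description of the letters and not of binding.

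Foxo1 had signals of 1107, 637, 1250 and 1278 in untreated samples 1 to 4 and of 297, 293, 626 and 419 in inflamed samples 1 to 4. Every inflamed value lay below every untreated one, although the groups were separated by only 0.025 on the log2 scale. The mean log2 signal was 10.01 ± 0.47 in untreated and 8.60 ± 0.52 in inflamed samples (SD, n = 4), a difference of -1.41 ± 0.28 (standard error, SE, of the limma fit). This difference belongs to 1 of 4 Foxo1 probe sets, the brightest, whose name carries the array's suffix for probes shared among several transcripts. The other 3 differed by -0.17, -0.39 and -0.28, and their inflamed and untreated values overlapped. With the mean of all probe sets per gene, an alternative chosen after the data were seen, Foxo1 differed by -0.56 ± 0.39 and was no longer past the threshold, so the size of its difference depends on which probe set is read.

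Foxo3, the other FoxO factor of the group, had signals of 885, 958, 921 and 885 in untreated samples and 150, 489, 225 and 252 in inflamed samples 1 to 4. The untreated samples were nearly alike, and the inflamed sample of pair 2 was the highest of its group. The mean log2 signal was 9.83 ± 0.055 against 7.99 ± 0.71 (SD, n = 4), a difference of -1.84 ± 0.34 (SE). All 3 probe sets were lower on average. The second, at -1.43, was lower in all 4 pairs with no overlap, whereas the third, at -1.14, was lower in 2 of 4 pairs only. Leaving out pair 1 or 3 put Foxo3 short of the threshold (-1.61 and -1.78), as did leaving out pair 1, 3 or 4 for Foxo1 (-1.24, -1.54 and -1.34). Of the remaining family members, Foxo4 was tested: its mean log2 signal of 8.00 ± 0.42 stood against 6.10 ± 0.83 in inflamed skin (SD, n = 4), and it was lower in all 4 pairs, but did not pass (limma adjusted p = 0.0762). It passed in 2 alternatives, with a random pair block (adjusted p = 0.0364) and with the mean of all probe sets (adjusted p = 0.0457). Foxo6 was not analysed here.

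Depp1, a small protein induced by FoxO factors and named for its induction by progesterone in the decidua, showed the widest difference of the 10 genes. Its signals were 215, 273, 308 and 339 in untreated samples and 6.41, 52.8, 1.19 and 2.51 in inflamed samples 1 to 4. Inflamed sample 2 was the only one above the background ceiling, set per array from bacterial control probe sets and lying between 5.79 and 9.94 in signal. The mean log2 signal went from 8.13 ± 0.28 to 2.49 ± 2.37 (SD, n = 4), a difference of -5.63 ± 0.94 (SE). Its size rests in part on values under background, where MAS5 signals have no reliable order. With 16 added to every signal before the log, Depp1 differed by -3.48. A second probe set gave -3.86, with 2 of 4 inflamed samples above background.

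Trp53inp1, a stress protein that acts in autophagy and p53 signalling, was the most even of the 10 genes. Its signals were 601, 580, 655 and 643 in untreated samples and 121, 150, 129 and 134 in inflamed samples 1 to 4. The changes of the 4 pairs were -2.31, -1.95, -2.34 and -2.26, with an SD of 0.18, the smallest among the 7 lower genes. The mean log2 signal was 9.27 ± 0.082 against 7.06 ± 0.13 (SD, n = 4), a difference of -2.22 ± 0.35 (SE), or 4.65-fold. The dimmer probe set of the gene differed by -1.98 and was lower in all 4 pairs, but far less evenly, with an SD of 1.86 over the pairs. The SE is limma's, which shares information on the spread among genes, and is larger than these 4 pairs alone would give.

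Btg1 and Btg2 are related antiproliferative proteins that bind the CCR4-NOT deadenylase, which shortens the poly(A) tails of messenger RNA. Btg2 had signals of 679, 835, 792 and 932 in untreated samples and 411, 192, 137 and 86.7 in inflamed samples 1 to 4. All inflamed values were below all untreated ones, but the pairs differed in size, from -0.72 in pair 1 to -3.42 in pair 4. The mean difference was -2.20 ± 0.45 (SE), from 9.65 ± 0.19 to 7.45 ± 0.94 (SD, n = 4). A second probe set differed by -1.82, again in all 4 pairs and without overlap. Btg2 was not past the threshold without pair 2, 3 or 4 (-2.22, -2.09 and -1.79).

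Btg1 had signals of 1811, 1265, 1376 and 1465 in untreated samples and 1778, 1596, 1516 and 2022 in inflamed samples 1 to 4. The groups overlapped, and 3 of 4 pairs were slightly higher in inflamed skin. The difference was 0.23 ± 0.18 (SE), and that of the other 2 probe sets 0.27 and 0.79. The change of Btg2 was thus below that of Btg1 in every pair, by 0.70, 2.46, 2.67 and 3.89 in pairs 1 to 4. Of 17 tested genes of the BTG/TOB family and the deadenylase, 0 were lower and 1 was higher (limma; 0 and 2 at an unadjusted p under 0.05), with a median change of -0.10. The higher one was Prmt1, an arginine methyltransferase that BTG proteins bind, which rose by 1.84 ± 0.35 (SE; adjusted p = 0.0148). Tob1 and Tob2, related antiproliferative proteins, differed by -0.86 ± 0.49 and -0.39 ± 0.29 and did not pass. Btg3 was not analysed here.

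Sestrins bind the GATOR2 complex and hold back the growth kinase mTORC1 when amino acids are scarce. Sesn1 had signals of 511, 588, 646 and 381 in untreated samples and 126, 19.4, 91.2 and 32.1 in inflamed samples 1 to 4. Its lowest untreated sample lay 1.596 above its highest inflamed one on the log2 scale, and the inflamed samples of pairs 2 and 4 were the lowest. The mean log2 signal was 9.03 ± 0.33 against 5.69 ± 1.26 (SD, n = 4), a difference of -3.33 ± 0.55 (SE). The next 2 probe sets by brightness differed by -2.24 and -2.06, each in all 4 pairs and without overlap, and the fourth was near background in both groups. The names of the probe sets at -3.33 and -2.24 carry the array's suffix for probes shared among several transcripts, and that at -2.06 does not.

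Sesn3, a sestrin known as a FoxO target, had signals of 122, 104, 313 and 243 in untreated samples and 174, 37.4, 137 and 71.5 in inflamed samples 1 to 4. The groups overlapped, and pair 1 was higher rather than lower. The difference was -0.98 ± 0.54 (SE), and the other probe set, at -0.19, was lower in 2 of 4 pairs. For Sesn2, the remaining sestrin, the difference of -1.55 ± 0.77 had an adjusted p of 0.284, and another probe set gave 0.48. Of 19 tested genes of sestrin partners and mTORC1 components, 0 were past the threshold in either direction in limma. At an unadjusted p under 0.05, 1 was lower and 1 higher, and the median change of the 19 genes was -0.59.

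Txnip is an arrestin-domain protein that binds thioredoxin and restrains glucose uptake. Its signals were 2388, 3264, 2280 and 3742 in untreated samples and 1236, 1206, 1279 and 2031 in inflamed samples 1 to 4. Every inflamed sample was below every untreated one, and inflamed sample 4 stood above the other 3. The mean log2 signal was 11.48 ± 0.35 against 10.45 ± 0.36 (SD, n = 4), a difference of -1.03 ± 0.17 (SE), or 2.04-fold. The second probe set differed by -1.27 and was lower in all 4 pairs, with overlapping groups. When each array was centred on its median, Txnip differed by -0.72 and was no longer past the threshold.

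The relatives of Txnip went both ways. Of 11 tested arrestin-domain, thioredoxin and glucose-sensing genes, 1 was lower and 2 were higher, with a median change of 0.58, while 6.94% of all genes tested passed in either direction. Arrdc3, an arrestin-domain protein like Txnip, fell from 9.10 ± 0.30 to 6.66 ± 0.96 (SD, n = 4; adjusted p = 0.0132). Its relative Arrdc4 rose by 3.31 ± 0.60 (SE; adjusted p = 0.0116), from 5.45 ± 1.43 to 8.75 ± 1.69, in all 4 pairs. The thioredoxin Txn1, the binding partner of Txnip, rose by 1.29 ± 0.15 (adjusted p = 0.00164). Arrdc3 did not pass without pair 1 (-2.39) or pair 2 (-2.32), Arrdc4 without pair 3 (2.70) or with the mean of its probe sets (2.07), and Txn1 with its probe set of largest interquartile range (1.54) or with the mean (1.42).

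Cited2 binds the coactivators CBP and p300 and competes there with the hypoxia factor HIF1A. Its signals were 392, 357, 250 and 605 in untreated samples and 106, 59.97, 417 and 413 in inflamed samples 1 to 4. Inflamed samples 1 and 2 were low and samples 3 and 4 lay within the untreated range, so the groups overlapped. The difference was -1.07 ± 0.55 (SE), with pair 3 higher in inflamed skin, and the second probe set differed by -1.67, also with pair 3 higher. Of 9 tested genes of its family and partners, 0 were lower (limma; 3 at an unadjusted p under 0.05) and 1 was higher. That was Hif1a, which rose by 1.94 ± 0.34 (SE; adjusted p = 0.0103) from 7.88 ± 0.51 to 9.82 ± 0.34 (SD, n = 4). Hif1a did not pass with its probe set of largest interquartile range (2.43, adjusted p = 0.0653). Cited4 lay under the filter on dim probe sets and was not tested.

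**Figure D2:**
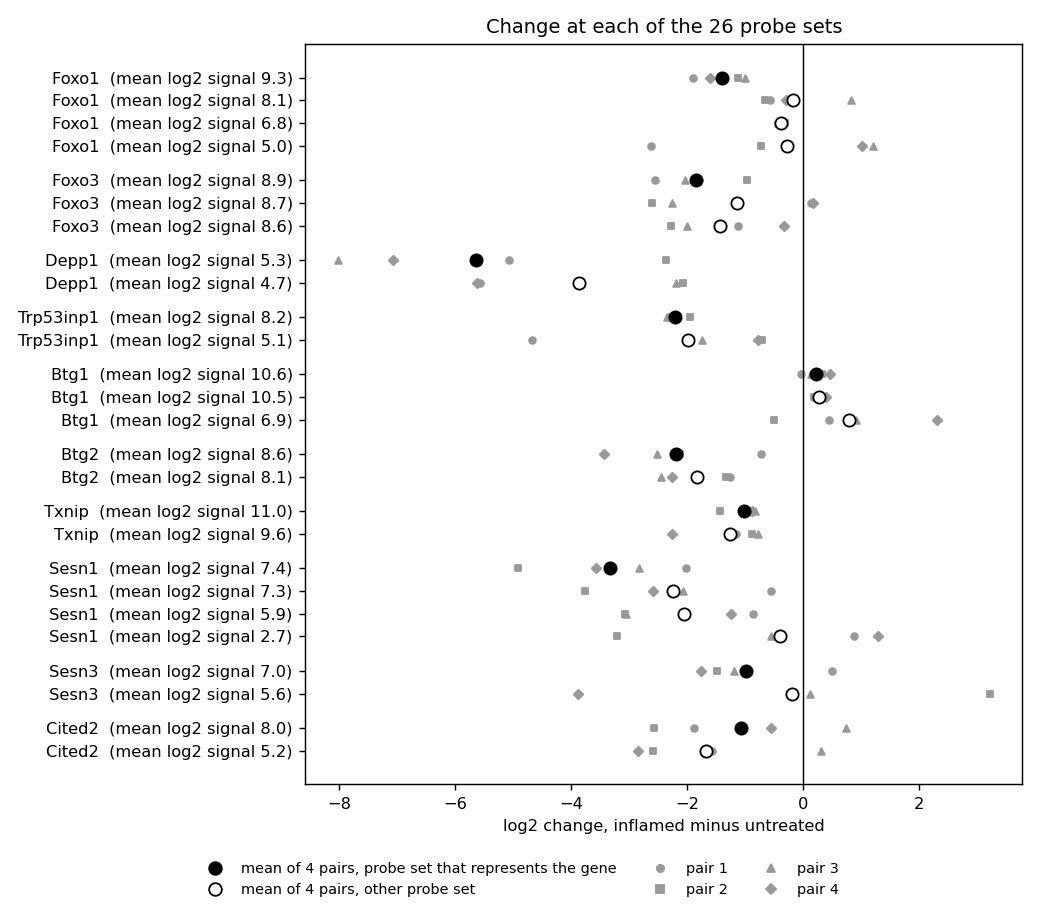
Log2 change (inflamed minus untreated) at each of the 26 probe sets of the 10 genes. Large circles are means of 4 pairs, filled for the probe set that represents the gene, and small grey symbols are the pairs. Of the 26 means, 23 lie below 0, and the 3 above it are those of Btg1.

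Across the 26 probe sets, 23 were lower and 3 higher on average, and 15 were lower in all 4 pairs. Beside the representing ones, 14 of the other 16 were lower. One probe set, of Sesn1, had a mean under the filter on dim probe sets. The pairs were alike in the number of genes: 9, 9, 8 and 9 of the 10 genes were lower in pairs 1 to 4. Their median changes were -1.89, -1.72, -1.62 and -1.79, against -0.049, -0.053, -0.044 and -0.075 for all genes tested. As the genes were chosen on this contrast, nothing is read from these counts of probe sets and genes. Depp1 was the gene with the widest change in pairs 1, 3 and 4, where its inflamed value lay under background, and Sesn1 in pair 2 (-4.92). In position, 4 of the 10 genes (Foxo3, Sesn1, Btg1 and Cited2) lie on chromosome 10, which holds 4.90% of the tested genes that matched RefSeq. Sesn1 and Foxo3 are near neighbours there, with 1 protein-coding gene between their starts.

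The number of genes past the threshold depended on the model of the spread. Without the intensity trend, 0 of the 10 were past it (limma; 7 lower and 0 higher at an unadjusted p under 0.05). Over all 10843 genes, 47 were lower and 94 higher in that fit (1149 and 918 at an unadjusted p under 0.05). Since the 10 genes were chosen on this contrast, their counts show only how the calls depend on the model. Leaving out pair 1, 2, 3 or 4 left 5, 6, 4 or 5 of the 10.

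Other genes known as FoxO targets did not share a direction. Of 33 tested, 2 were lower and 2 higher, which is 12.1% against 6.94% of all genes tested, and their median change was -0.22. Map1lc3b, which encodes the autophagosome protein LC3B, fell from 11.58 ± 0.20 to 10.66 ± 0.51 (SD, n = 4; adjusted p = 0.0123). Ccng2, a cyclin that slows the cell cycle, fell from 6.75 ± 0.53 to 3.71 ± 0.76, with 3 of 4 inflamed samples above background (adjusted p = 0.0305). The mitochondrial superoxide dismutase Sod2 rose by 2.27 ± 0.27 (SE; adjusted p = 0.00164), and the TIE2 ligand Angpt2 by 1.16 ± 0.26 (adjusted p = 0.0287). Angpt2 did not pass without the pair block (adjusted p = 0.0817) or with a random one (adjusted p = 0.0526), and Map1lc3b differed by -0.61 and did not pass under median centring. With a pair left out, Map1lc3b did not pass for pair 1 or 3 (-0.76 and -0.91), Ccng2 for pair 1, 2 or 3 (-3.12, -2.84 and -2.72) and Angpt2 for the same pairs (1.07, 1.11 and 1.10). The probe set of largest interquartile range also ended the calls of Map1lc3b (-1.95) and Angpt2 (1.96), while Sod2 passed with each pair left out.

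Some widely used FoxO readouts did not pass. Klf2, a flow-responsive transcription factor, differed by -0.22 ± 0.32 (SE), a sign that turned under median centring (0.086) and without pair 4 (0.031). The insulin receptor substrate Irs2 differed by 1.05 ± 0.79, and Pik3ip1, a brake on PI3K, by -1.09 ± 0.50. Pik3ip1 was lower in all 4 pairs without overlap of the groups. Klf2, Irs2 and Pik3ip1 had adjusted p-values of 0.754, 0.492 and 0.241 in limma. With a pair left out, the targets counted 0 lower and 1 higher (pair 1 or pair 3), 1 of each (pair 2) or 2 of each (pair 4), and 0 of each when the intensity trend was dropped (7 and 7 at an unadjusted p under 0.05).

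Upstream of the FoxO factors, transcripts of the PI3K, AKT and SGK pathway were mostly not past the threshold. Of 23 tested, 1 was lower and 0 were higher (limma; 5 and 1 at an unadjusted p under 0.05), with a median change of -0.18. Tek, the angiopoietin receptor TIE2, fell from 8.91 ± 0.27 to 7.44 ± 0.70 (SD, n = 4; adjusted p = 0.046). It was not past the threshold with any 1 pair left out (-1.34, -1.44, -1.69 and -1.39 for pairs 1 to 4), without the pair block (adjusted p = 0.0563), without the filter (adjusted p = 0.0578), when probe sets were chosen by interquartile range (adjusted p = 0.0553) or under median centring (-1.16). The kinases Akt1 and Akt2 differed by 0.27 ± 0.49 and 0.29 ± 0.45 (SE) and did not pass, with overlapping groups. Sgk1, a kinase that phosphorylates FoxO factors like AKT does, was lower in all 4 pairs, at 9.32 ± 0.26 against 10.30 ± 0.36, and did not pass (adjusted p = 0.0613). It passed without the pair block (adjusted p = 0.049), with a random pair block, under quantile normalization, with the mean of its probe sets and without pair 1 (-1.25).

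Of 24 tested genes whose proteins modify, export or partner FoxO factors, 0 were lower and 2 higher (limma, 1 and 5 at an unadjusted p under 0.05). Ywhae, a 14-3-3 protein of the family that holds phosphorylated FoxO factors in the cytoplasm, rose by 0.52 ± 0.09 (SE; adjusted p = 0.00842). It did not pass under quantile normalization (0.25) or with another probe set (0.82). The other was Prmt1, given above, which also methylates Foxo1. Prmt1 did not pass without pair 1, 2 or 3 (1.73, 1.80 and 1.75).

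Targets of p53 also went both ways, with 1 of 27 lower and 2 higher and a median change of -0.31. Plk2, a stress-induced kinase, fell from 8.61 ± 0.48 to 6.86 ± 1.05 (SD, n = 4; adjusted p = 0.0448). Its call ended without any 1 of pairs 1 to 4 (-1.48, -2.06, -1.78 and -1.69) and without the pair block (adjusted p = 0.0781), with a random pair block, whose correlation is estimated (adjusted p = 0.0524), without the filter (adjusted p = 0.053), when probe sets were chosen by interquartile range (adjusted p = 0.0521) and under median centring (-1.45). Dram1, a lysosomal protein that promotes autophagy, rose by 2.59 ± 0.50 (SE; adjusted p = 0.0152), and the nuclease Aen by 2.00 ± 0.47 (adjusted p = 0.0354). Dram1 did not pass without pair 1 or 3 (2.43 and 2.23), nor Aen without pair 1, 3 or 4 (1.53, 2.16 and 1.95). Trp53 itself was not analysed here.

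**Figure D3:**
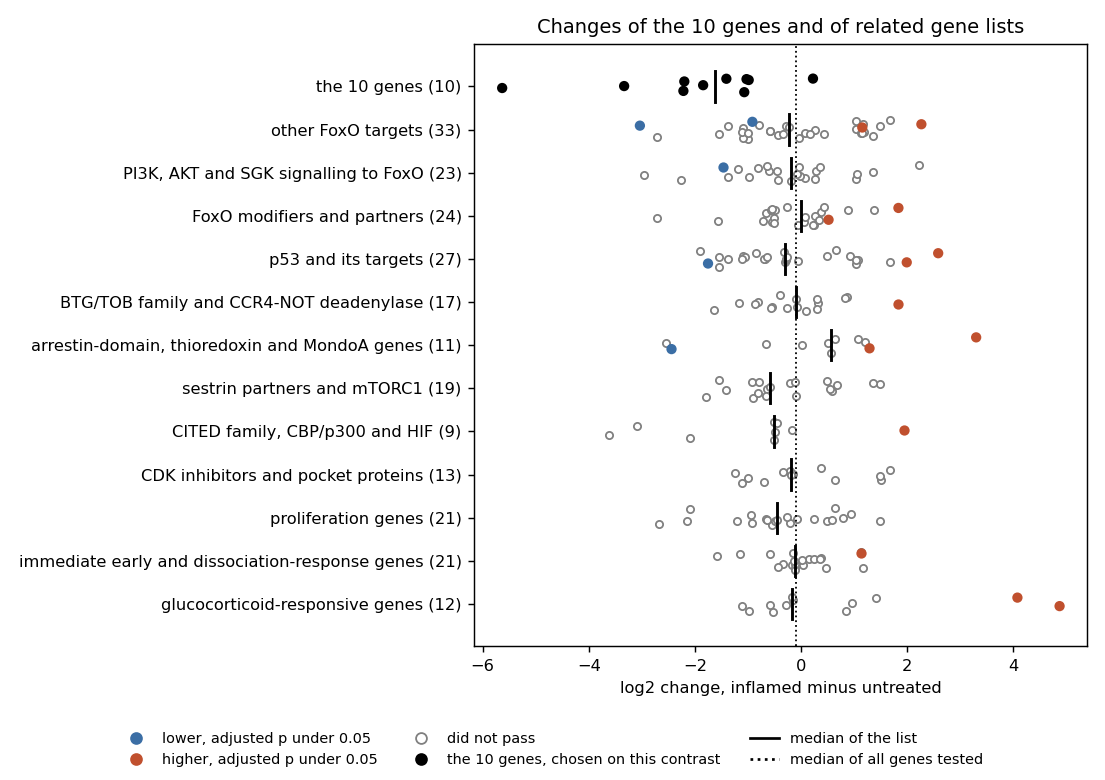
Log2 change (inflamed minus untreated) of the 10 genes and of the tested genes of 12 related lists, with the number of genes in brackets. Blue and orange points passed an adjusted p of 0.05 in limma, open points did not, black points are the 10 chosen genes, short bars are list medians and the dotted line is the median of all genes tested. The 10 genes have a median of -1.62, and the medians of the other lists lie between -0.59 and 0.58.

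Genes that mark the cell cycle did not pass in either direction. Of 21 tested proliferation genes, 0 were past the threshold (limma; 1 lower and 1 higher at an unadjusted p under 0.05), with a median change of -0.44. Mki67, the gene of the proliferation marker Ki-67, was lower in all 4 pairs, at 4.84 ± 1.34 against 6.94 ± 0.97 (SD, n = 4), and did not pass (adjusted p = 0.135). Of 13 tested genes of cyclin-dependent kinase inhibitors and pocket proteins, 0 passed (1 lower and 1 higher at an unadjusted p under 0.05). Cdkn1a, the p21 inhibitor and a target of both FoxO and p53, was higher in all 4 pairs without overlap, by 1.69 ± 0.45 (SE; adjusted p = 0.056). It passed in 6 of 10 alternatives that kept all samples, among them the fit without the pair block (adjusted p = 0.0451), and in 0 of 4 with a pair left out. Cdkn1b, the p27 inhibitor, differed by -0.99 ± 0.37, Rbl2, a pocket protein of quiescent cells, by -1.10 ± 0.81, and Cdkn1c, the p57 inhibitor, by -0.21 ± 0.45, of which the last turned to 0.091 under median centring.

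Btg2 is also an immediate early gene, a class that responds within minutes to stimuli and to the handling of tissue. Of 21 tested genes of that class and of the response to cell dissociation, 0 were lower and 1 was higher (limma; 2 and 2 at an unadjusted p under 0.05). The higher one was the chaperone Hsp90aa1, by 1.13 ± 0.24 (SE; adjusted p = 0.0239), which did not pass without pair 1, 2 or 3 (1.06, 1.09 and 1.12) or without the pair block (adjusted p = 0.0661). Egr1 had log2 signals of 12.45 ± 0.13 untreated and 12.33 ± 0.22 under inflammation (SD, n = 4), and Fos of 12.31 ± 0.22 and 12.20 ± 0.19, so both were bright in both groups. Neither passed, the sign of both turned under median centring (0.19 and 0.20), and Egr1 passed as lower under quantile normalization (-0.41).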

How the data were processed

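RNA of 8 sorted pools went through a linear isothermal amplification and was hybridised to single-colour oligonucleotide arrays, per the labels' protocols. The deposited table holds linear intensity values, made with MAS5 per the submitters' processing notes. No source used here gives the MAS5 version or scaling target. Of 45101 probe sets, 34945 name 1 gene in GEO's platform annotation. Signals were set on the log2 scale without further scaling. Those whose mean log2 signal was below 3.30, the median, were left out, and the brightest represented each gene. The 10843 genes were fitted in limma 3.58.1 (R 4.3.3; intensity trend, pair as a fixed block) with two-sided tests and Benjamini-Hochberg adjustment over all genes; adjusted p-values are from this fit unless another is named.

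Per the design text, the samples of a pair share the day of sorting and extraction. Across genes, the deviations of paired samples correlated between -0.0012 and 0.16. P-values refer to pools of 3 mice. The background ceiling of an array is the 95th percentile of 27 bacterial control probe sets. The number of arrays limits the precision.

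The 10 genes, the gene lists and the rule for named genes (all 10, up to 4 genes per list and direction, a fixed set of pathway genes, and the 3 closest patterns to Depp1, Trp53inp1 and Btg2) were chosen with earlier results of these data known. Motifs were chosen with promoter sequences in view. Alternatives were median centring, quantile normalization, a pseudocount of 16, no filter, a stricter filter (60th percentile), another choice or the mean of probe sets, no intensity trend, no pair block, a random pair block and leaving out each pair.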

Additional observations from a re-analysis of the deposited data

Results flagged for a closer look

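Of 144 groups of 4 samples examined for the 26 probe sets and the other named genes, 6 held a sample far from the other 3 by Dixon's criterion (the gap to the nearest sample over the range); chance gives about 1 in 20. For Txnip, inflamed sample 4 was at 10.99 on the log2 scale and the others at 10.24 to 10.32. For a second probe set of Foxo3, untreated sample 4 was at 9.04 and the others at 9.35 to 9.42. Akt1 was at 5.95 in untreated sample 3, against 6.97 to 7.02 in the others. Dram1 was at 4.49 in the same sample, against 6.57 to 6.71. Fbln5 was at 6.28 in inflamed sample 1, against 7.50 to 7.64. Prmt1 was at 8.12 in untreated sample 1, against 7.25 to 7.38.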

How the results depend on the processing

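The counts of the 10 genes past the threshold stayed within 1.5 times of 7 lower and at 0 higher (limma) under all alternatives except the fit without the intensity trend, which gave 0 lower, and the fit without pair 3, with a range of 4 to 6 over the left-out pairs. No alternative turned the sign of any of the 10 genes. The 33 other FoxO targets gave 1 lower and 4 higher under median centring, 1 lower with the probe set of largest interquartile range, 4 higher with the mean of probe sets (chosen after seeing the data), 0 and 0 without the intensity trend, and 0 to 2 lower and 1 to 2 higher with a pair left out. Over all genes, 328 were lower and 424 higher; median centring gave 719 higher and 227 lower (it shifts the median gene from -0.09 to 0.22), the fit without the trend 47 lower and 94 higher, and leaving out a pair 126 to 198 lower and 208 to 306 higher. Of 22 other named genes past the threshold, 18 were not past it without the trend; Acacb, Cd300lg, Mt1 and Mt2 were. Without the replicate block, 7 of the 10 genes were lower and over all genes 301 lower and 384 higher; beside the calls of Angpt2 (adjusted p = 0.0817) and Rflnb (0.0353) and those named above, the block changed no call of a named gene. Signs turned under median centring for Cdkn1c (0.091), Egr1 (0.19), Fos (0.20), Klf2 (0.086) and Tsc22d3 (0.13), and with another probe set for Sesn2 (0.48). With a pair left out, Cdkn1c ran from -0.70 to 0.093, Klf2 from -0.53 to 0.031 and Tsc22d3 from -0.41 to 0.20. None of these passed with the sign turned. A stricter filter left no value for Acacb, Apba2, Nusap1 and Sesn2. The causes were not tested.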

Other observations

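The genes whose 4 within-pair changes lay closest to those of 3 of the genes were found by the root mean square difference, over 4 pairs and all genes tested. Closest to Depp1 were Acacb, an acetyl-CoA carboxylase that restrains fatty acid oxidation (1.21), Apba2 (1.37) and Cd300lg, an endothelial receptor also called nepmucin (1.598). Depp1 and these genes were above background in at most 1 of 4 inflamed samples, so their order rests mostly on values under background and is not read further. Closest to Trp53inp1 were the spindle protein Nusap1 (0.12), the cholesterol exporter Abca1 (0.28) and the elastic fibre protein Fbln5 (0.29). Abca1 went from 10.25 ± 0.20 to 7.94 ± 0.21 (SD, n = 4), while Nusap1 was dim, with 1 of 4 inflamed samples above background. Closest to Btg2 were the kinase Cdk19 (0.17), the pyruvate dehydrogenase phosphatase subunit Pdp2 (0.24) and the actin-binding regulator Rflnb (0.25), none of which passed (adjusted p = 0.0773, 0.0986 and 0.0593 in limma), although Cdk19 passed with a random pair block (adjusted p = 0.0399) and Rflnb in 4 of 10 alternatives with all samples.

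Glucocorticoids induce several genes that FoxO factors also control. Of 12 tested glucocorticoid-responsive genes, 0 were lower and 2 higher in limma, which is 16.7% against 6.94% of all genes tested. At an unadjusted p under 0.05, 3 were lower and 5 higher, against 1247 and 1139 of all 10843 genes. The 2 past the threshold were the metallothioneins Mt2 and Mt1, which bind zinc and copper. They rose by 4.88 ± 0.22 and 4.08 ± 0.28 (SE, limma adjusted p = 1.54e-05 and 0.000115). Tsc22d3, a glucocorticoid-induced leucine zipper protein, differed by -0.17 ± 0.36 and did not pass.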
